A study of Rattus norvegicus with 421 samples.

Results

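Macrophage genes were followed through the livers of rats given 1 of 30 compounds. The set of 10 genes was listed by name, with earlier results of these data known. It had 3 parts: resident markers (Cd163, C1qa, C1qb and C1qc), injury or scar-associated markers (Gpnmb, Lgals3 and Mmp12), and the general markers Lyz2, Cd14 and Cd68. Of these 10, 9 had a probe set, 1 each, among the 10411 genes that could be named from the 15866 probe sets of the array. Cd163 had none in the probe table, so the resident markers measured here were the 3 chains of complement C1q only.

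The series holds 421 arrays of liver, 293 from 98 treated groups (1 compound at 1 time) and 128 from 38 vehicle groups, 30 of them given corn oil (CO), 86 carboxymethylcellulose (CMC) and 12 saline (Sal). All were male Wistar Hanover rats of the Crl:WI[Gl/BRL/Han]IGS BR stock, 8 to 10 weeks old, dosed by stomach tube, for up to 14 days, and 3 of the 5 in a treatment group were picked on their histopathology for the arrays, so the spread between arrays is that of chosen animals. Each compound had 1 dose, and each treated group was set against the vehicle group its label names, of the same vehicle and time. The groups described most fully were given, in mg/kg, 4250 acetaminophen (Aap, 6 to 48 h, against saline), 200 ethionine (ETH), 3000 acetamide (AA), 0.24 aflatoxin B1 (AB1), 400 methylcarbamate (Mcarb), 600 dehydroepiandrosterone (DHEA), 3.5 N-nitrosomorpholine (NNM) and 20 4-(methylnitrosamino)-1-(3-pyridyl)-1-butanone (NNK), all against carboxymethylcellulose, and 100 cyproterone acetate (CPA), against corn oil. Of the other compounds with a called member, ibuprofen was given at 94 mg/kg, N-nitrosopiperidine at 20, piperonyl butoxide at 1200 and 3-methylcholanthrene at 25. Dimethylnitrosamine was given at 4, methapyrilene at 60, C.I. Direct Black at 146, methylenedianiline at 50, thioacetamide at 19.2 and 2-nitrofluorene at 44. Phenobarbital at 80 and allyl alcohol at 36 had no called member in the main fit. Nor had 2-acetylaminofluorene at 1.2, cefuroxime at 250, clonidine at 0.1, 1,4-dichlorobenzene at 300 and diethylstilbestrol at 10. The same held for nifedipine at 3, prazosin at 1, propranolol at 40 and Wy-14643 at 60.

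The liver holds its own macrophages, the Kupffer cells, which sit in the sinusoids and clear particles, dying cells and iron. C1q, assembled from the chains encoded by C1qa, C1qb and C1qc, is the recognition subunit of the classical complement pathway and is made largely by tissue macrophages, Kupffer cells among them. When liver is injured, monocytes from blood enter it, and macrophages near dead cells, lipid or scar switch on another set of genes: Gpnmb, a transmembrane glycoprotein of lysosome-rich cells, Lgals3, the lectin galectin-3, and Mmp12, the elastase of macrophages. Cd68 is a lysosomal membrane glycoprotein of phagocytes, Lyz2 encodes lysozyme, and Cd14 is the co-receptor for bacterial lipopolysaccharide, which in rodents hepatocytes can also make. In whole liver, more or fewer cells of a type and more or less RNA per cell cannot be told apart.

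The upstream sequences of 2 injury genes and 2 resident genes are shown as examples of both marker sets. They are the 250 bases before the annotated start of each gene in RefSeq, build GRCr8: Gpnmb at chr4:79340878-79341127, plus strand, Mmp12 at chr8:12866402-12866651, plus strand, C1qa at chr5:154419934-154420183, minus strand, and C1qb at chr5:154407828-154408077, minus strand. Capitals mark, on either strand, TGANTCA (the core bound by AP-1), CACGTG and CATGTG (E-box and M-box, which MITF and TFE factors can bind) and GAGGAA (the core bound by PU.1). The C1q chain genes lie next to each other on chromosome 5.
Gpnmb: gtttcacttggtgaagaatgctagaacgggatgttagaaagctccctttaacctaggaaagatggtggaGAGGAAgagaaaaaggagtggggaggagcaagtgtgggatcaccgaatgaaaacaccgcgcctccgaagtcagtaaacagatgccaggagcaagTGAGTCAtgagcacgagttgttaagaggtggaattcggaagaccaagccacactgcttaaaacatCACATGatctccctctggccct
Mmp12: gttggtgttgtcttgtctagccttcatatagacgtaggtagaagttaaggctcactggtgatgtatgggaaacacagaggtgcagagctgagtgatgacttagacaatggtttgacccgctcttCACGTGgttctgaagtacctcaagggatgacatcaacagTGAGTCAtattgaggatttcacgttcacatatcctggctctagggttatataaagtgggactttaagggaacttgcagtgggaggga
C1qa: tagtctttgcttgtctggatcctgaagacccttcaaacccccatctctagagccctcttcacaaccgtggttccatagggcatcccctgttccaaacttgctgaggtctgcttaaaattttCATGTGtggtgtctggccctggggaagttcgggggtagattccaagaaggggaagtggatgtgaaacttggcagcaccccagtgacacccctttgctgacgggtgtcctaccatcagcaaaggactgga
C1qb: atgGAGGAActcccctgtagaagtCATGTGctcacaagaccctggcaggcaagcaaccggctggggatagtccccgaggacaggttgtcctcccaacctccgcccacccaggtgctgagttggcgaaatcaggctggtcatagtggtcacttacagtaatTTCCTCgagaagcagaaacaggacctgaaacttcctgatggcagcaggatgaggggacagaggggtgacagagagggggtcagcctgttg
TGANTCA was found in 6.34% of all 33469 promoters of this length, CACGTG in 5.59%, CATGTG in 12.1% and GAGGAA in 23.3%. Gpnmb and Mmp12 both held TGANTCA, at the same distance, with its first base 87 bases before the start. Gpnmb also held CATGTG 22 bases and GAGGAA 181 bases before the start, and Mmp12 held CACGTG at 126 bases. C1qa held CATGTG at 129 bases, and C1qb held it at 226 bases and GAGGAA at 247 and 90 bases. Among the 8 measured or unmeasured members with a promoter in the table, TGANTCA was in 3 (Gpnmb, Mmp12 and Cd68), CATGTG in 4 and GAGGAA in 5. These matches are descriptions of letters, not of bound sites.

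Levels are log2 values of the robust multi-chip average (RMA), and a change is the mean of a treated group minus that of its vehicle group on this scale, ± the standard error (SE) of the fit, usually for 3 against 3 to 6 animals. A gene was called higher or lower where limma gave a Benjamini-Hochberg adjusted p below 0.05 over all probe sets and the change was at least 1.5-fold. Hepatocyte genes checked the tissue: the mean of 5 of them lay between 12.01 and 12.96 in all 421 arrays. Of the arrays, 7 held transcripts of pancreas or muscle at a mean over 2 log2 units above the median array, among them 1 of NNK on day 14 and 1 of Aap at 6 h. Without these arrays 4 calls of members were lost: Lyz2 with Aap at 6 h (-0.93) and with NNK on day 14 (0.81), and Lgals3 (0.92) and Cd14 (-0.73) with N-nitrosopiperidine (NPip) on day 7. A further 2 calls of Lgals3 then passed at unchanged size, higher with allyl alcohol on day 3 (1.05) and lower with DHEA on day 14 (-0.66).

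Members were called more often than the array as a whole, but they were chosen with earlier results of these data known. This excess is therefore a description and not a test. Of 294 combinations of an injury gene and a treated group, 49 were higher and 2 lower; of 294 for the C1q chains, 35 were higher and 16 lower; of 294 for Lyz2, Cd14 and Cd68, 27 were higher and 28 lower. The background over every probe set and group was 1.02% higher and 0.731% lower. Several compounds were set against the same vehicle animals, and the counts are therefore linked. At least 1 member was called in 44 of the 98 groups and none in the other 54.

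**Figure D1:**
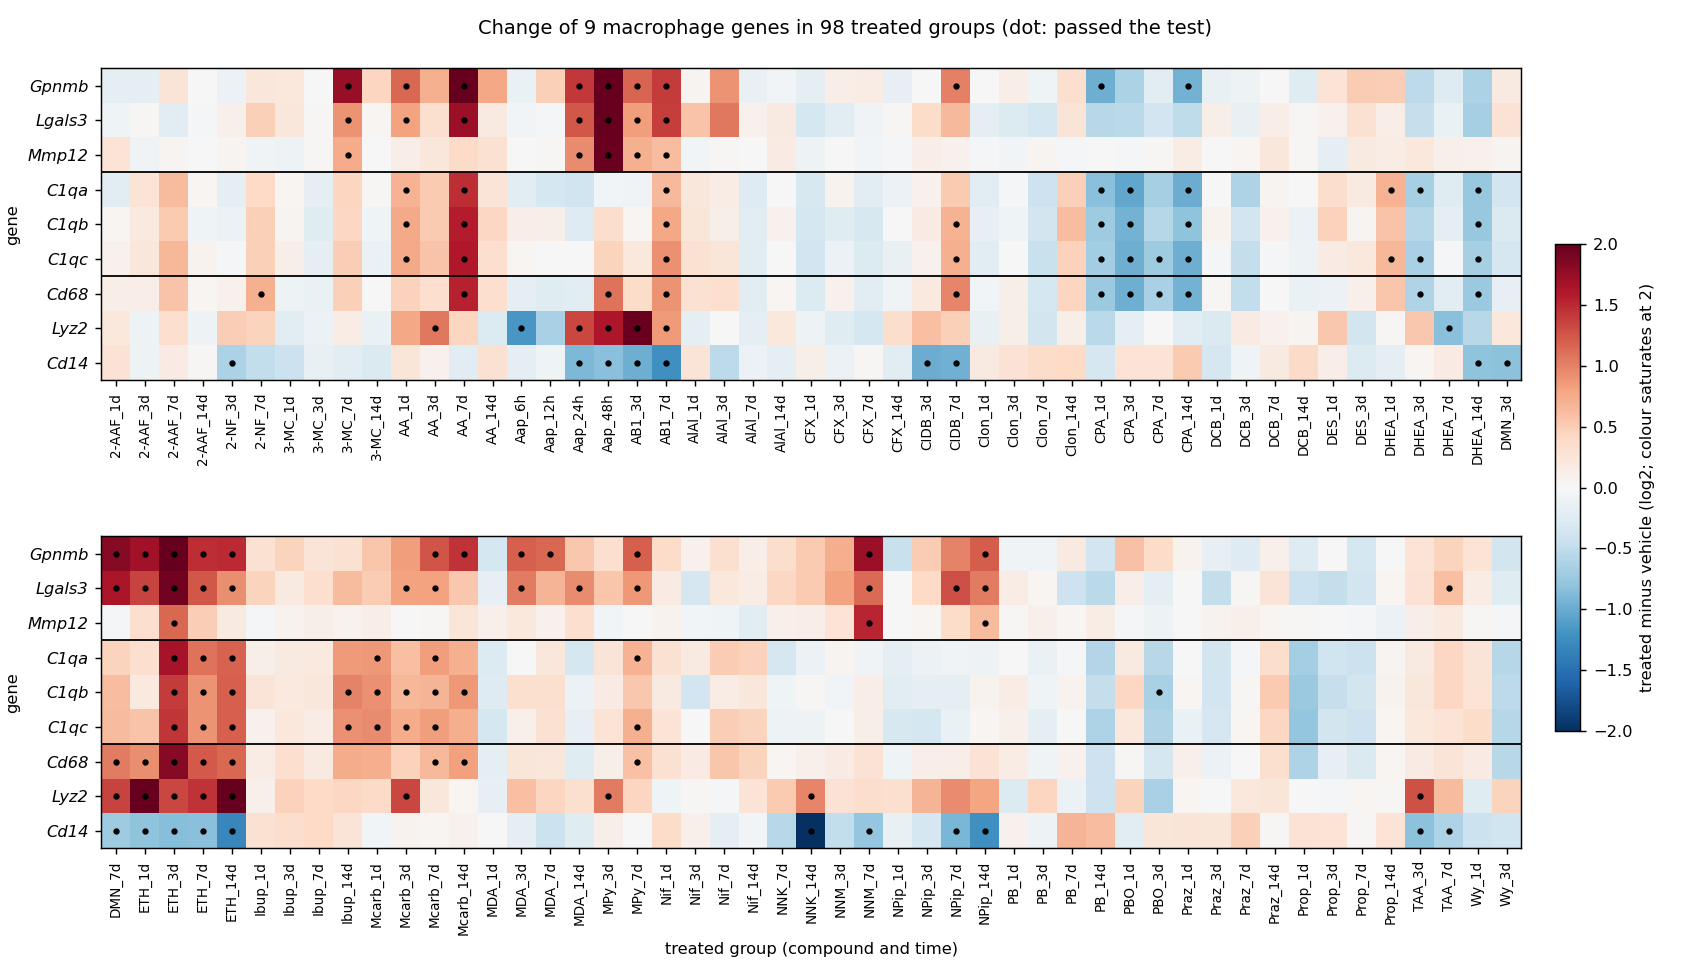
Change of 9 macrophage genes (rows) in 98 treated groups (columns, compound and time) as treated minus vehicle on the log2 scale, red higher and blue lower, with a dot where the gene passed the test. Gpnmb, Lgals3 and Mmp12 stand above the upper line, the C1q chains between the lines, and Cd14, never called higher, in the last row.

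Gpnmb and Lgals3 were the injury genes that rose most widely. Gpnmb was higher in 20 groups of 12 compounds and lower in 2 groups, both of CPA, with changes between -0.97 and 4.28. Lgals3 was higher in 21 groups of 12 compounds and lower in none, with changes between -0.66 and 3.47. Mmp12 was higher in 8 groups of 6 compounds (3-methylcholanthrene, AB1, Aap, ETH, NNM and NPip) and lower in none; in vehicle arrays its level was low, 6.07 to 6.78 with a median of 6.28. In vehicle livers Gpnmb had a median of 7.81 and Lgals3 one of 8.51, each over 128 arrays.

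The largest injury response was that to Aap at 48 h. Gpnmb reached 12.54, 11.41 and 12.58 in Aap livers, against 7.79, 8.03 and 7.89 in saline livers, a change of 4.28 ± 0.33 or 19.4-fold (limma, adjusted p = 2.37e-28). Lgals3 reached 12.25, 11.19 and 12.69 in Aap livers, against 8.57, 8.55 and 8.61 in saline livers, a change of 3.47 ± 0.25 (adjusted p = 5.15e-30). No Aap array overlapped a saline array in either gene, and Aap array 2 was the lowest of its group in both. Mmp12 had the same lowest array, with 8.50, 6.95 and 9.60 in Aap livers, against 6.53, 6.29 and 6.27 in saline livers, a change of 1.98 ± 0.17 (adjusted p = 1.51e-24). In this comparison 6.01% of probe sets were called higher and 4.03% lower, and of the 9 members 5 were higher and 1 lower.

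The C1q chains did not pass the test in the same Aap livers. C1qa had 9.71, 10.22 and 10.19 in Aap livers, against 9.73, 10.47 and 10.08 in saline livers (-0.06 ± 0.23, adjusted p = 0.864). C1qc had 9.72, 9.98 and 10.12 in Aap livers, against 9.16, 9.78 and 9.56 in saline livers (0.44 ± 0.23, adjusted p = 0.107), and C1qb changed by 0.35 ± 0.22 (adjusted p = 0.199). The arrays of both groups overlapped for each chain. Of the other resident genes measured, Slc40a1, the iron exporter ferroportin, rose by 1.41, while Clec4f, a lectin specific to rodent Kupffer cells, changed by -0.48 without passing. Other injury genes followed the members: 10 of 16 on a list of lipid- and scar-associated macrophage genes were higher, led by Spp1 (osteopontin) at 2.64. Of 13 general phagocyte genes 7 were higher, led by Tyrobp, a signalling adaptor of myeloid cells, at 1.48. Genes of other cells moved as well, with 5 of 5 cell cycle genes, 4 of 13 stellate cell and fibroblast genes (Timp1, 2.17) and 2 of 6 monocyte genes higher, 1 of 3 neutrophil and 1 of 9 T and NK cell genes higher, and none of 5 hepatocyte genes called; their part in the result was not tested.

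With NNM on day 7 injury genes also rose while no C1q chain passed. Mmp12 had 7.23, 7.68 and 8.36 in NNM livers, and 6.07 to 6.38 in the 6 vehicle livers, a change of 1.52 ± 0.14 (limma, adjusted p = 3.15e-19). Gpnmb had 9.04, 9.31 and 9.62 in NNM livers, and 7.21 to 7.87 in vehicle livers (1.71 ± 0.28, adjusted p = 9.19e-07), and Lgals3 changed by 1.14 ± 0.22 (adjusted p = 5.61e-05). The arrays of NNM and vehicle did not overlap for any of the 3. The C1q chains changed by -0.07 (C1qa), 0.13 (C1qb) and 0.11 (C1qc), none past the test. Of the 9 members 3 were higher and Cd14 was lower, where 0.851% of probe sets were called higher and 0.517% lower. None of 13 other phagocyte genes was called, and 6 of 13 stellate cell and fibroblast genes were higher, led by Dcn, the matrix proteoglycan decorin, at 1.58; their part was not tested.

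The C1q chains moved together, upwards and downwards. C1qa was higher in 10 groups and lower in 5, C1qb higher in 12 and lower in 5, and C1qc higher in 13 and lower in 6. Their changes ranged from -1.05 (C1qa, CPA on day 3) to 1.65 (C1qa, ETH on day 3). In vehicle arrays the medians were 9.93 for C1qa, 9.12 for C1qb and 9.34 for C1qc.

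In 11 groups of 6 compounds (ETH, AA, AB1, Mcarb, C.I. Direct Black and methapyrilene) C1q chains and injury genes rose in the same livers. ETH on day 3 had the strongest rise of Gpnmb in these 11 groups, while C1qb and C1qc changed further with AA on day 7. Gpnmb had 10.68, 10.27 and 10.02 in ETH livers, against 6.61, 7.07, 7.403 and 7.64 in vehicle livers (3.14 ± 0.31, limma, adjusted p = 1.02e-19). These vehicle livers were low in Gpnmb: 6.61 was its lowest level in all 128 vehicle arrays, whose median was 7.81. C1qa had 11.62, 11.44 and 10.85 in ETH livers, against 9.61, 9.60, 9.41 and 9.99 in vehicle livers (1.65 ± 0.21, adjusted p = 2.46e-12). Every ETH array lay above every vehicle array in both genes. C1qb rose by 1.39, C1qc by 1.43, Lgals3 by 1.93 and Mmp12 by 1.15, so 8 of the 9 members were higher, and Cd14 was lower, where 7.91% of probe sets were called higher and 4.98% lower. All 4 other resident genes rose, Clec4f by 2.17 and Slc40a1 by 0.76, and 11 of 13 other phagocyte genes, led by Fcer1g, the common gamma chain of Fc receptors, at 2.08. On the injury list 3 of 16 rose and Fabp5, a fatty acid binding protein, fell by 2.28. Plac8, a monocyte gene, rose by 2.26, and no neutrophil or hepatocyte gene was called; the part of these cells was not tested.

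ETH on days 7 and 14 had 7 members higher and Cd14 lower each time. Background calls were 2.45% higher and 1.58% lower on day 7, and 4.29% higher and 3% lower on day 14. C1qa had 10.90, 10.89 and 10.47 in ETH livers on day 7, against 9.54, 9.58 and 9.86 in vehicle livers (1.09 ± 0.23, limma, adjusted p = 6.49e-05). Gpnmb had 8.44, 9.58 and 8.86 in the same ETH livers, against 7.32, 7.30 and 7.83 in vehicle livers (1.48 ± 0.33, adjusted p = 0.0002). The arrays did not overlap in either gene. On day 14 Gpnmb changed by 1.49 ± 0.33, C1qa by 1.18 ± 0.23 and Lgals3 by 0.94 ± 0.25, the last of these calls being lost without vehicle array 2. Mmp12 was not called on either day (0.49 and 0.18), and of the other injury genes none rose. Lipa, the lysosomal lipase on that list, fell by 0.63 on day 14. Of the phagocyte genes 7 of 13 were higher on day 7 and 6 of 13 on day 14, and of the other resident genes 2 of 4 on both days, with Clec4f at 1.17 and 1.196. Plac8 rose by 1.202 on day 7 and 0.82 on day 14, and Krt19, a bile duct keratin, by 1.88 on day 14; their part was not tested.

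With AA on day 7 all 3 C1q chains rose. C1qc had 10.44, 10.47 and 10.80 in AA livers, and 8.42 to 9.32 in the 6 vehicle livers (1.60 ± 0.20, limma, adjusted p = 2.38e-12). C1qb rose by 1.57 and C1qa by 1.47. Gpnmb had 9.48, 10.37 and 10.76 in AA livers, and 7.19 to 7.87 in vehicle livers (2.63 ± 0.28, adjusted p = 2.48e-15), and Lgals3 rose by 1.71 ± 0.22. Mmp12 changed by 0.39, short of 1.5-fold. In this comparison 3.52% of probe sets were called higher and 1.42% lower, and 6 of 9 members were higher and none lower. All 4 other resident genes, 9 of 13 phagocyte genes and 5 of 5 cell cycle genes rose, Ccnb1, which encodes cyclin B1, by 2.03, while none of the neutrophil or T and NK cell genes was called. Plac8 rose by 1.44, 2 of 13 stellate cell and fibroblast genes and 2 of 5 hepatocyte genes were higher, and 1 of 7 endothelial genes was lower; their part was not tested.

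AB1 and Mcarb on day 7 were set against the same 6 vehicle arrays as AA, of which 2 were low in the C1q chains (C1qb 8.43 and 8.12, against 8.82 to 9.22 in the other four). With AB1, 8 members were higher and Cd14 lower, where 2.45% of probe sets were called higher and 1.4% lower. C1qa had 10.05, 9.81 and 10.87 in AB1 livers, and 9.04 to 10.09 in vehicle livers (0.64 ± 0.20, limma, adjusted p = 0.0107), so the groups overlapped. AB1 array 3 carried the C1q calls: without it the changes were 0.33 for C1qa, 0.50 for C1qb and 0.63 for C1qc, and none passed. The C1qa call was also lost without vehicle array 1 (0.53) or 2 (0.56). Gpnmb rose by 1.40 and Lgals3 by 1.38 with AB1. None of the 4 other resident genes was called with AB1, while 7 of 13 phagocyte genes (Fcer1g, 0.95) and 7 of 16 other injury genes (Lpl, lipoprotein lipase, 0.93) were higher. Also higher were 4 of 13 stellate cell and fibroblast genes (Col1a2, 0.87), Plac8 (1.07) and 4 of 6 bile duct genes, led by Tspan8 at 2.37, and 1 of 5 hepatocyte genes was lower; their part was not tested. With Mcarb, 6 members were higher against a background of 0.378% higher and 0.0504% lower. Gpnmb had 8.20, 9.22 and 9.08 in Mcarb livers, and 7.19 to 7.87 in vehicle livers (1.26 ± 0.28, adjusted p = 0.00262), and C1qc rose by 0.84 ± 0.20 (adjusted p = 0.00494). No gene of the other cell type lists was called with Mcarb on day 7. On day 14 of Mcarb, where same-numbered arrays deviated together, the calls of C1qb, Gpnmb and Cd68 were lost with the replicate number as a block (adjusted p = 0.237, 0.367 and 0.399). That fit also held only the compared groups, so its few arrays and the block cannot be told apart as reasons for the loss. On day 7 all 6 calls were lost without Mcarb array 2.

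In 13 groups of 9 compounds an injury gene rose and no C1q chain passed. These were Aap, AB1, ETH, NNM, NPip, 3-methylcholanthrene, dimethylnitrosamine, methylenedianiline and thioacetamide. They were not equally firm. The only injury call of thioacetamide, Lgals3 on day 7, was lost in 8 of 9 fits that left out 1 array number. Each injury call of methylenedianiline was lost in 3 to 5 such fits, and those of Gpnmb and Mmp12 with NPip on day 14 in 4. The only injury call of NPip on day 7 was lost without the arrays with transcripts of another tissue. In 3 groups (DHEA and Mcarb on day 1, and Ibup, ibuprofen, on day 14) a C1q chain rose and no injury gene passed. Ibup on day 14 had C1qb at 9.29, 9.64 and 10.03 in Ibup livers, against 8.98, 8.58 and 8.43 in vehicle livers (0.99 ± 0.22, limma, adjusted p = 0.0114), with 0.132% of probe sets called higher. This call and that of C1qc were lost without Ibup array 2 or 3, or without vehicle array 2 or 3. Gpnmb changed there by 0.31 and Lgals3 by 0.64, neither past the test. In no group were a C1q chain and an injury gene called in opposite directions. The mean change of the injury genes was above that of the C1q chains in 67 of 98 groups. These include groups where the C1q chains fell further, such as CPA on day 3 (C1q mean -0.99, injury mean -0.40). The count is therefore not a count of injury rises. Mmp12, part of the injury mean and low in vehicle livers, changed by no less than -0.22 in any group. Over the 98 groups the means correlated at Pearson's r = 0.61, given as a description since groups share vehicle arrays. Whether a group's injury change differed from its C1q change was not tested.

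**Figure D2:**
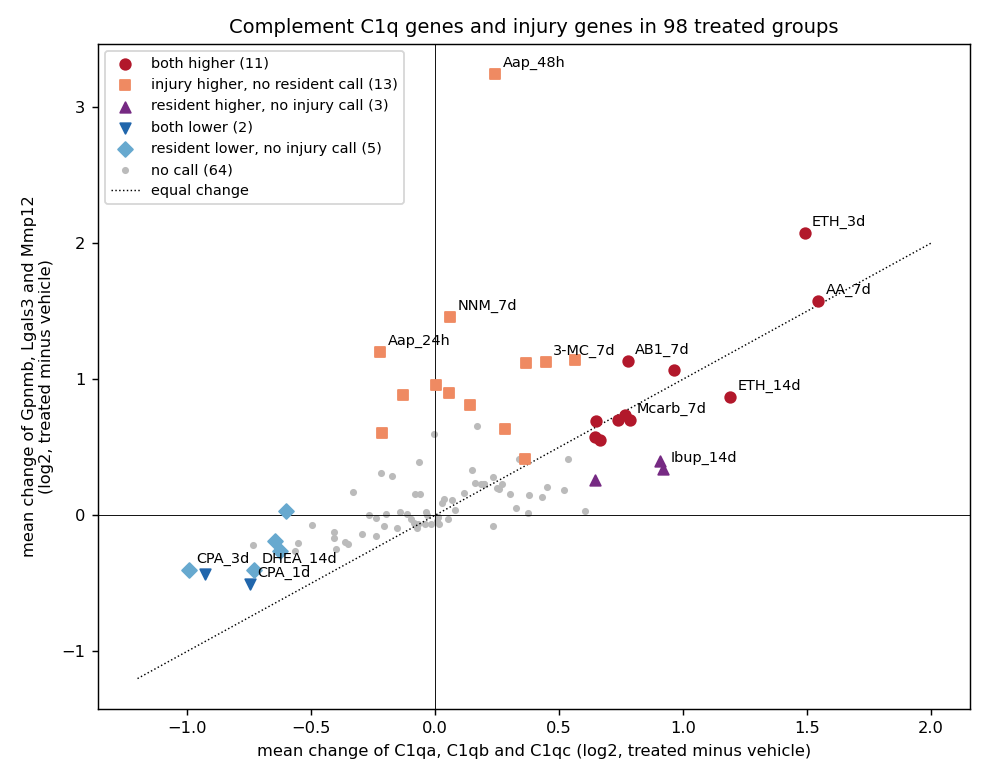
Mean change of Gpnmb, Lgals3 and Mmp12 (vertical) against that of C1qa, C1qb and C1qc (horizontal) for 98 treated groups, log2, treated minus vehicle, with symbols by which genes passed the test. Aap at 48 h stands far above the line of equal change, ETH on day 3 and AA on day 7 lie to the upper right, and CPA, and DHEA on days 3 and 14, to the lower left.

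Falls were seen with CPA and DHEA, and for C1qb with PBO (piperonyl butoxide) on day 3. With CPA all 3 C1q chains were called lower on days 1, 3 and 14, and C1qc alone on day 7 (-0.71). That call was lost in 3 of 9 fits that left out 1 array number, at -0.52 to -0.84 over the 9, and on day 1 those of C1qa, C1qb and C1qc in 1, 2 and 3 fits. On day 3 C1qa had 9.13, 9.12 and 9.67 in CPA livers, against 10.05, 10.32 and 10.69 in vehicle livers (-1.05 ± 0.23, limma, adjusted p = 0.000263). Cd68 had 7.76, 7.81 and 8.20 in CPA livers, against 8.63, 8.80 and 9.27 in vehicle livers (-0.98 ± 0.21, adjusted p = 0.000257). No CPA array reached a vehicle array in either gene. The vehicle value of 9.27 was the highest Cd68 level in all 128 vehicle arrays, whose median was 8.55. Against the same vehicle livers 1,4-dichlorobenzene on day 3 had a mean C1q change of -0.50, with no member called. The CPA calls of C1qa and Cd68 on day 3 were kept in all 9 fits that left out 1 array number, at -0.88 and -0.79 or lower. On that day 4 of 9 members were lower, with 1.12% of probe sets called higher and 1.71% lower, and on days 1 and 14 there were 5, where 1.99% and 1.79% of probe sets were lower. Gpnmb was the additional member on days 1 (-0.97) and 14 (-0.94). Its call on day 14, at adjusted p = 0.0494, was lost in 8 of 9 fits that left out 1 array number, and its call on day 1 in 3. On day 3 Clec4f fell by 0.93 and Fcer1g by 0.99, 2 of 4 other resident and 3 of 13 phagocyte genes were lower, and Fabp5 fell by 2.32. Col3a1, a fibrillar collagen, fell by 0.82 on day 3 and by 1.62 on day 14, and the endothelial receptor gene Kdr by 0.62 and 0.91. These are single examples from 13 stellate cell and fibroblast genes and 7 endothelial genes, and do not describe either list as a whole. The part of those cells was not tested.

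DHEA on day 14 lowered 5 members, where 2.29% of probe sets were called higher and 2.24% lower. C1qb had 8.48, 8.86 and 8.29 in DHEA livers, against 9.33, 9.33 and 9.25 in vehicle livers (-0.76 ± 0.22, limma, adjusted p = 0.00656). C1qa fell by 0.76, C1qc by 0.67, Cd68 by 0.74 and Cd14 by 0.80. Without DHEA array 3 the calls of the 3 C1q chains were lost, at changes of -0.63 for C1qa, -0.63 for C1qb and -0.64 for C1qc. Those of C1qa and C1qc were also lost without vehicle array 2, and that of C1qc without DHEA array 1 (-0.58) or vehicle array 1. Clec4f fell by 1.18, and 3 of 7 endothelial and 3 of 13 stellate cell and fibroblast genes were lower; their part was not tested.

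**Figure D3:**
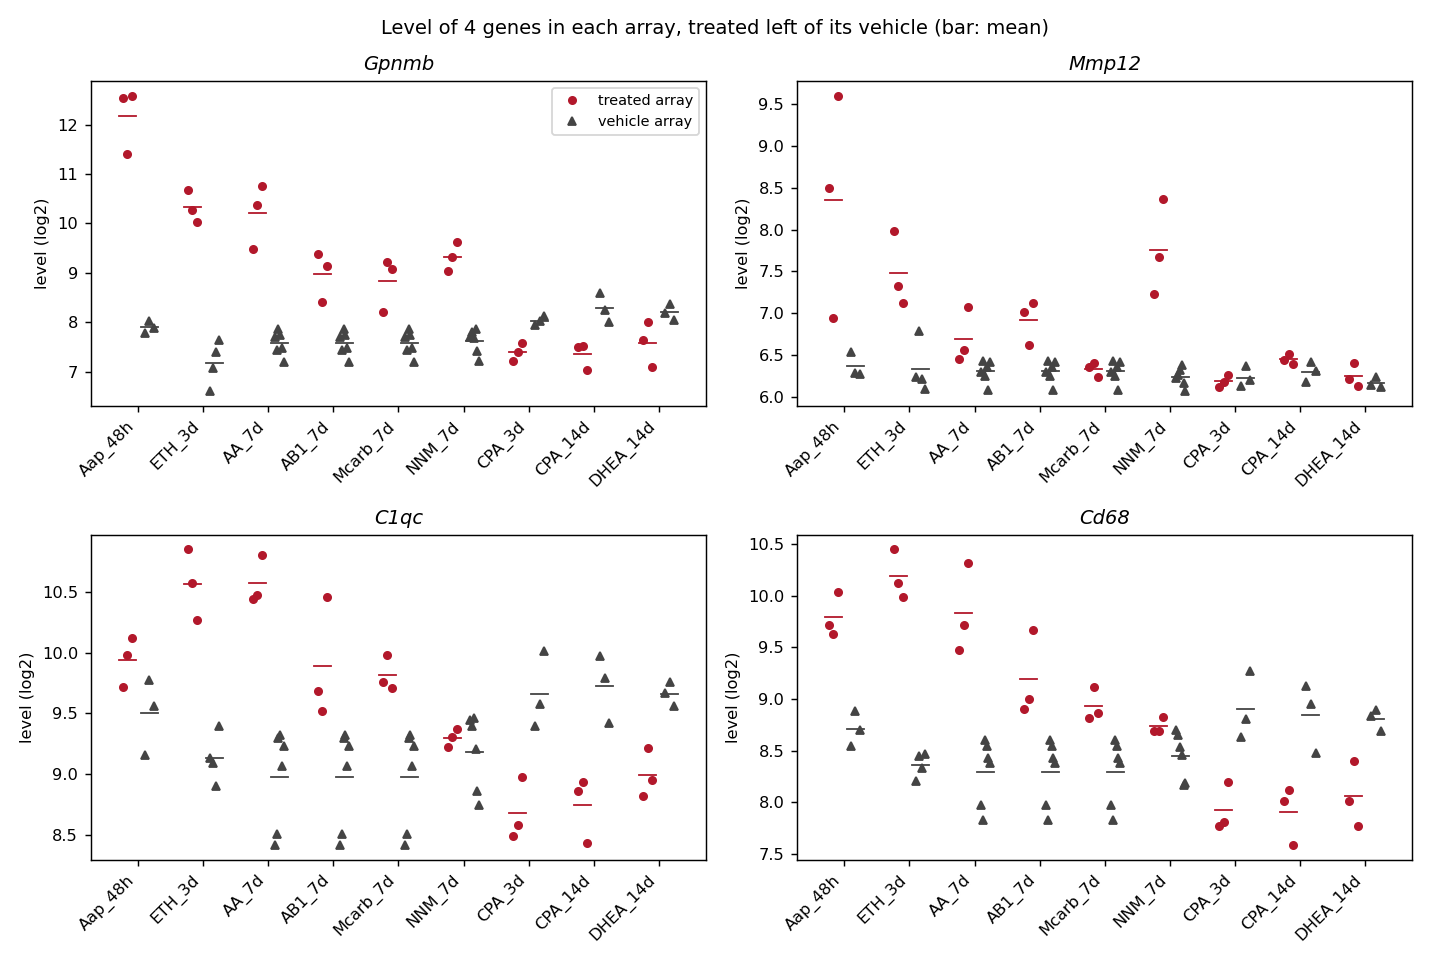
Level (log2) of Gpnmb, Mmp12, C1qc and Cd68 in every array of 9 treated groups (circles, left) and their vehicle groups (triangles, right), with a bar at each mean. Aap at 48 h and NNM on day 7 stand apart from vehicle in Gpnmb and Mmp12 while their C1qc arrays overlap those of vehicle, and CPA and DHEA lie below vehicle in C1qc and Cd68.

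Cd68 changed much as the C1q chains did. It was higher in 13 groups of 9 compounds and lower in 6 groups of CPA and DHEA. Over 98 groups its change correlated at r = 0.94 with that of C1qc and 0.79 with that of Gpnmb, as a description of groups that share vehicle arrays. Its largest change was 1.83 ± 0.20 with ETH on day 3, with 10.45, 10.13 and 9.99 in ETH livers, against 8.20, 8.44, 8.34 and 8.47 in vehicle livers (limma, adjusted p = 1.74e-16). In Aap livers at 48 h, where no C1q chain passed, Cd68 had 9.72, 9.62 and 10.04, against 8.55, 8.88 and 8.70 in saline livers (1.09 ± 0.21, adjusted p = 5.68e-06).

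Lyz2 was higher in 14 groups of 9 compounds and lower in 2. Its largest rise was with ETH on day 14, with 12.91, 13.03 and 13.15 in ETH livers, against 10.60, 11.11 and 10.51 in vehicle livers (2.29 ± 0.32, limma, adjusted p = 2.28e-10). With Aap it was lower at 6 h, with 9.66, 10.39 and 9.33 in Aap livers, against 11.19, 11.14 and 10.51 in saline livers (-1.16 ± 0.32, adjusted p = 0.00403), and higher at 48 h by 1.62 ± 0.32. The lowest of the Aap arrays at 6 h, array 3, was 1 of the 7 with transcripts of another tissue, and without it the change was -0.93 and the call was lost. AB1 on day 3 raised Lyz2 by 1.97 ± 0.28 while C1qa changed by -0.07.

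Cd14 went the other way. It was called lower in 20 groups of 11 compounds and higher in none, although it was among the brighter genes, with a median of 11.04 in vehicle arrays. In 14 of these 20 groups an injury gene rose, beside 24 of all 98 groups, and a link between them was not tested. The largest fall was with NNK on day 14, with 8.87, 9.28 and 8.19 in NNK livers, and 11.02 to 11.39 in the 6 vehicle livers (-2.40 ± 0.17, limma, adjusted p = 8.09e-32), where 0.813% of probe sets were called higher and 0.353% lower. No C1q chain or injury gene passed there, and Lyz2 rose by 0.98 ± 0.28, a call lost without NNK array 1 or 2, or vehicle array 1. NNK array 1 also held pancreas transcripts, and all 8 pancreas genes were called higher; without the arrays of that kind Cd14 changed by -2.44. ETH on day 14 (-1.297), NPip on day 14 (-1.23) and AB1 on day 7 (-1.22) followed in size. In 18 of the 20 groups no treated array overlapped a vehicle array, the exceptions being ETH on days 1 and 7. Such separation largely follows from the call and does not mark out Cd14. Over all 98 groups, in either direction, Cd14 was without overlap in 40, and the other members in 20 (Mmp12) to 40 (Lgals3). ETH array 3 on day 7 had 11.10, beside 9.49 and 9.63 in the other two, and without ETH array 1 or 2 that call was lost. The ETH call on day 1 was lost with only the compared groups in the fit and the replicate number as a block, where numbers paired the arrays (adjusted p = 0.14). The highest Cd14 change, 0.67 with PB (phenobarbital) on day 7, did not pass (adjusted p = 0.0625).

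**Figure D4:**
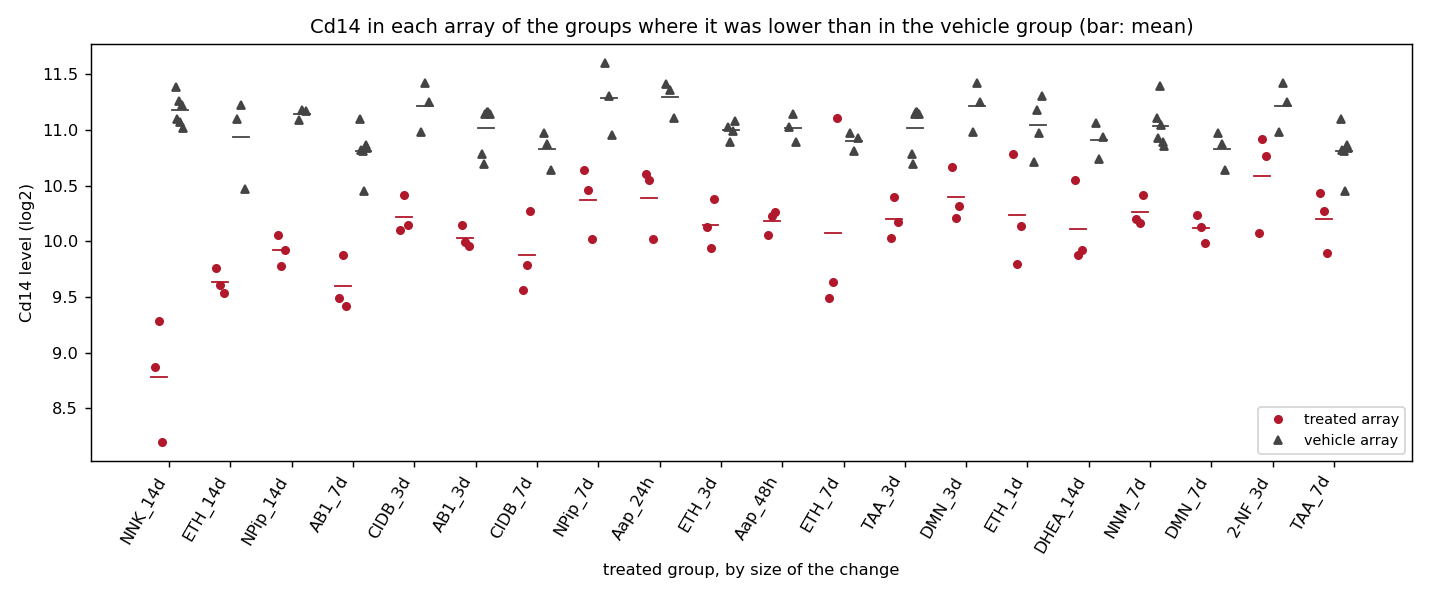
Cd14 level (log2) in every array of the 20 groups in which it was lower (circles, left) and of their vehicle groups (triangles, right), ordered by size of the change, with a bar at each mean. NNK on day 14 lies lowest, between 8.19 and 9.28, and ETH on day 7 holds 1 array at the vehicle level.

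The time of the response differed between compounds. Each compound's last time was compared with its first, and, added after seeing the data, each time with the one before, as differences of changes in the same limma fit. Over 270 tests of last against first, 9 were higher and 6 lower, where 0.58% and 0.482% were the shares over the whole array. Over 612 tests of consecutive times, 21 were higher and 15 lower, where 0.352% and 0.267% were called. With AA all 3 C1q chains, Gpnmb (1.15) and Lgals3 (0.81) were already called higher on day 1, where 138 of 15866 probe sets were. Each of these calls was lost in 2 to 5 of 9 fits that left out 1 array number. On day 3 of AA only Lyz2 was called. From day 3 on, AA changed upwards and then downwards. On day 7 the change exceeded that on day 3 by 1.93 ± 0.40 for Gpnmb (limma, adjusted p = 0.000289) and by 1.05 ± 0.27 for C1qb (adjusted p = 0.00482). On day 14 it differed from that on day 7 by -1.86 ± 0.43 for Gpnmb (adjusted p = 0.00732) and by -1.16 ± 0.29 for C1qb (adjusted p = 0.0164). All 3 C1q chains, Gpnmb, Lgals3 and Cd68 passed in both steps, where 2.07% of probe sets were called higher in the step to day 7 and 0.87% lower in the step to day 14. Each of these 6 calls in the step to day 14 was lost without AA array 3, as were those of the 3 C1q chains and Cd68 in the step to day 7, the C1qa call there being lost without AA array 2 as well.

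With Aap the injury genes were late. Gpnmb changed by -0.13 at 6 h and 1.42 at 24 h, and its change at 48 h exceeded that at 24 h by 2.86 ± 0.46 (limma, adjusted p = 5.02e-07). Lgals3 gained 1.27 between 12 h and 24 h and 2.22 between 24 h and 48 h, and Mmp12 0.91 and 1.04. Without Aap array 3 the Mmp12 gain to 48 h was 0.45 and its call was lost, as was that of Lgals3 to 24 h (0.94); the Mmp12 call to 24 h was lost without Aap array 1 (0.69). Cd68 passed only in the step to 48 h, at 1.304 ± 0.30, where 2.48% of probe sets were called higher. Cd14 changed by -0.82 ± 0.27 in the step to 24 h, a call lost in 3 of 9 fits that left out 1 array number. With ETH, Gpnmb gained 1.46 and C1qa 1.32 between day 1 and day 3, where 3.55% of probe sets were called higher, and Gpnmb then changed by -1.67 ± 0.45 between day 3 and day 7 (adjusted p = 0.00417), while no C1q chain passed in that step. The Gpnmb call to day 3 was lost without ETH array 2 or vehicle array 1, and that to day 7 without ETH array 1 (-1.23). With DHEA C1qa and C1qc were called higher on day 1 (0.69 and 0.67) and lower on day 3 (-0.66 and -0.65), while C1qb was called on neither day (0.58 and -0.57), with a difference between the days of -1.35 ± 0.30 for C1qa (adjusted p = 0.00432), where 0.195% of probe sets were called lower. These calls were easily lost with fewer arrays. Those of C1qa and C1qc were lost in 4 of 9 fits that left out 1 array number on day 1, and in 3 on day 3. Over the 9 fits the day 1 changes lay at 0.59 to 0.85 for C1qa and 0.56 to 0.80 for C1qc. The C1qa difference between the days was lost without DHEA array 1 or 2 of both days (-1.197 and -1.202). With NNK, Cd14 was lower on day 14 than on day 7 by a difference of -1.84 ± 0.24 (adjusted p = 2.42e-09), the 1 probe set called lower in that step (0.0063%).

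**Figure D5:**
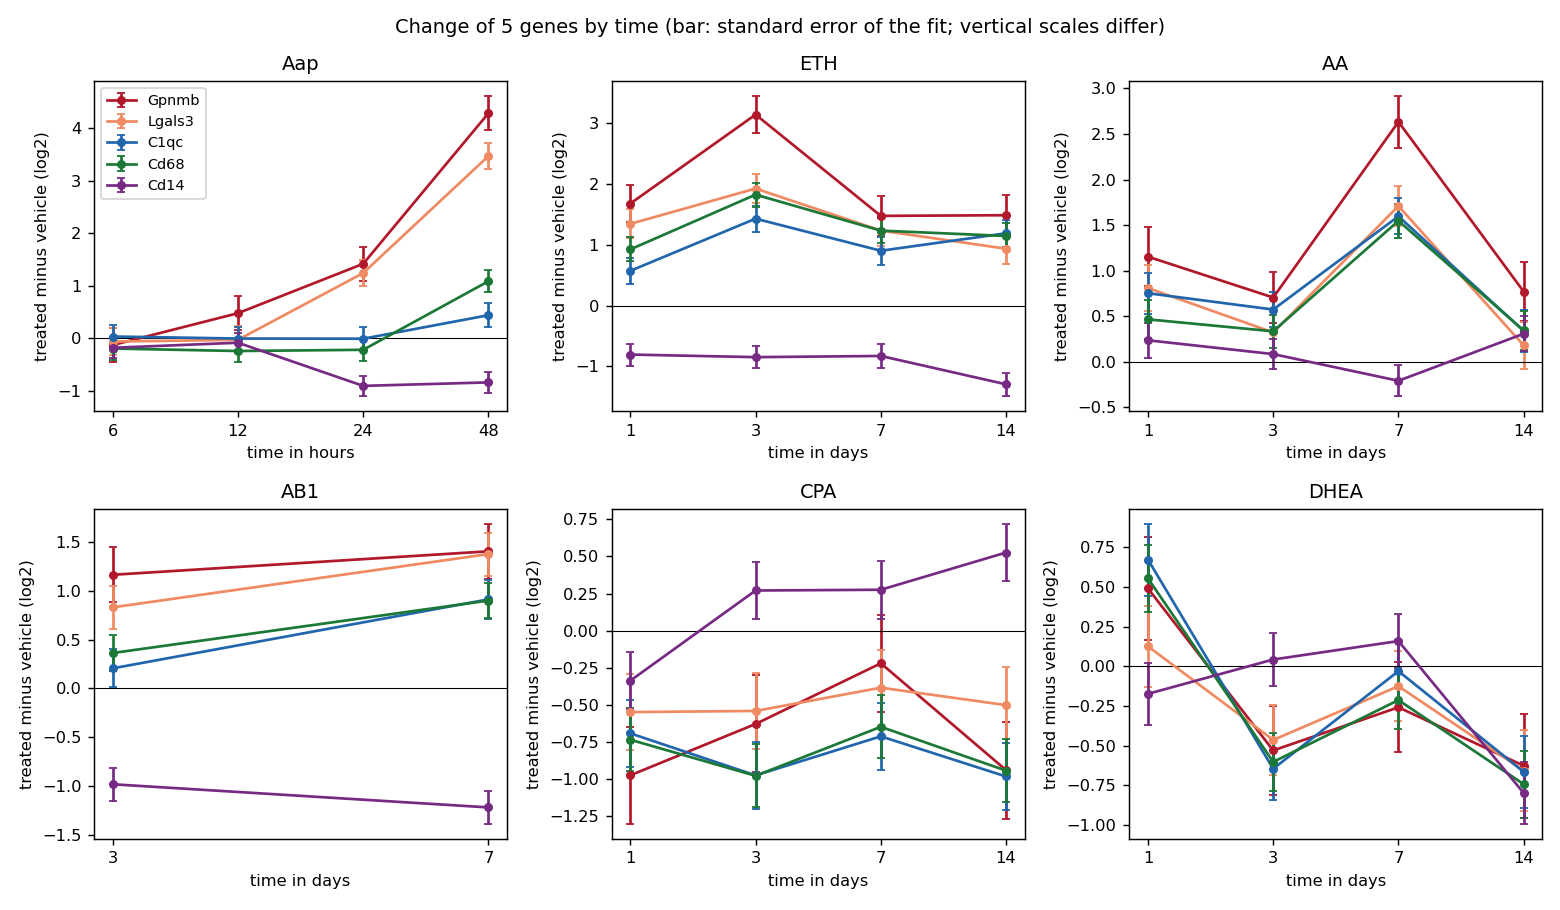
Change of Gpnmb, Lgals3, C1qc, Cd68 and Cd14 (log2, treated minus vehicle, bars 1 SE of the fit) by time for 6 compounds, with a vertical scale for each. AA peaks on day 7 and ETH on day 3, Aap rises to 48 h in Gpnmb and Lgals3, CPA stays below 0 in C1qc, and DHEA crosses 0 between day 1 and day 3.

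The genes most like each member were found by the correlation of their changes over the 98 groups, a description of groups that share vehicle arrays. The C1q chains were most like each other (r = 0.95 to 0.97), and next like Ctss, the lysosomal protease cathepsin S (0.96 for C1qc), and the chemokine Ccl6 (0.95 for C1qa). Cd68 was most like Fcer1g (0.95). Gpnmb was most like Lgals3 (0.92), Bcl2a1 (0.90) and Lcp1, an actin-bundling protein of white blood cells (0.88), and Lgals3 like Gpnmb, Cotl1 and Capg (0.88 each for the last pair). Mmp12 was less like any gene, with Fxyd5 first (0.73). Lyz2 was most like Coro1a (0.75), and Cd14 like Inmt (0.71), a methyltransferase. Among the 128 vehicle arrays, deviations from the group mean correlated at 0.85 to 0.93 between C1q chains and at 0.55 between Gpnmb and Lgals3. Across the marker sets, Lgals3 correlated with the C1q chains at 0.59 to 0.63 and Gpnmb at 0.44 to 0.53. Mmp12 correlated at -0.13 with Gpnmb and -0.19 with Lgals3. The C1q chains, Gpnmb and Lgals3 thus varied together without treatment too, within and across the sets, and Mmp12 did not vary with them.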

How the data were processed

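Livers were profiled on Affymetrix RAE230A arrays, 1 per animal. Scans were read with Microarray Suite, and RMA in the affy package gave the deposited log2 values: the authors thereby corrected background, normalized the arrays against each other and summarized probes. The version of RMA was not given in the sources used here. Array medians lay between 7.38 and 7.49, and no 2 arrays held identical values. The number of arrays limits the precision.

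Groups, vehicle groups, doses and times came from the labels. Symbols came from the platform's probe table, updated by gene identifier; of 15866 probe sets 12783 had 1 symbol, 312 several and 2771 were unlisted. The probe set with the highest mean stood for a gene. Under R 4.3.3, limma 3.58.1 fitted a mean for each group to the 421 arrays together and tested changes, with 285 residual degrees of freedom and Benjamini-Hochberg adjustment over all probe sets per comparison. On simulated data for dimethylnitrosamine (DMN) on day 7 against vehicle, 100 of 100 probe sets changed 2-fold were recovered, and 1 unchanged probe set was called. For DMN on day 7 minus day 3, 97 of 100 were recovered. The simulated noise was independent and normal, and the changed probe sets were drawn at random. The members vary more than most probe sets (residual standard deviation at percentiles 91.2 to 98.7), so recovery of changes in the members was not measured. The described groups were the 6 with most members higher and the 4 with most lower, ties by the larger median change; Aap, NNM, NNK, Ibup and others were described after their values were seen. The members and lists were chosen with earlier results of these data known. Alternatives covered the arrays in the fit, the replicate block, quantile normalization, dropping probe sets with a mean below 6, pooled vehicle times, all probe sets of a gene, left-out arrays and no fold threshold. Arrays were left out by number, from all treated or all vehicle groups at once, so a difference between times lost that number at both times. Same-numbered arrays were not taken as pairs (mean correlation of their deviations 0.0131); every pair exceeded 0.1 in 4 of 98 comparisons. Figures were drawn with Python and matplotlib.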

Additional observations from a re-analysis of the deposited data

Results flagged for a closer look

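Among 54 sets of a member in a vehicle group of 4 or 6 arrays, 1 array stood apart: Mmp12 at 6.63 in array 2 of the vehicle group of NNK on day 14, against 6.10 to 6.29 in the other arrays of that group. Chance sets apart about 1 in 20 such sets.

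The change of a member differed between times of a compound in 15 comparisons of the last with the first time (limma, difference of changes). With Aap these were Gpnmb (4.41), Lgals3 (3.53), Mmp12 (1.98), Lyz2 (2.77) and Cd68 (1.28). With DHEA they were C1qa (-1.45), C1qb (-1.33), C1qc (-1.34) and Cd68 (-1.297), and with ETH C1qa (0.85) and C1qb (1.01). The others were Cd68 with DMN (1.20), Cd14 with NNK (-1.84), Mmp12 with NNM (1.25) and C1qb with PBO (-1.07); these 4 compounds had 2 times each, so their consecutive steps are the same comparisons.

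Between consecutive times, with AA the change on day 7 minus that on day 3 was 0.96 for C1qa, 1.05 for C1qb, 1.02 for C1qc, 1.93 for Gpnmb, 1.39 for Lgals3 and 1.21 for Cd68. On day 14 minus day 7 the values were -1.21, -1.16, -1.26, -1.86, -1.53 and -1.203 in the same order of genes. With Aap, 24 h minus 12 h gave 1.27 for Lgals3, 0.91 for Mmp12, 1.98 for Lyz2 and -0.82 for Cd14. At 48 h minus 24 h it gave 2.86 for Gpnmb, 2.22 for Lgals3, 1.04 for Mmp12 and 1.304 for Cd68. With DHEA, day 3 minus day 1 gave -1.35 for C1qa, -1.15 for C1qb, -1.32 for C1qc and -1.16 for Cd68. With ETH, day 3 minus day 1 gave 1.32 for C1qa, 1.20 for C1qb, 0.86 for C1qc, 1.46 for Gpnmb, 0.81 for Mmp12 and 0.90 for Cd68, and day 7 minus day 3 gave -1.67 for Gpnmb and -0.66 for Mmp12.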

How the results depend on the processing

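No called change of a member turned its direction under any alternative. Of the 157 calls against vehicle, 153 were kept without the 7 arrays with transcripts of another tissue and 152 with quantile normalization. With the vehicle times of a study block pooled 124 were kept (34 new calls), with only the compared groups in the fit 113, and with these and the replicate number as a block 112. All 157 were kept with a filter at a mean of 6, with all probe sets of a gene averaged and with no fold threshold. These settings could hardly lose a call, since each measured member had 1 probe set and a mean above 6 (lowest Mmp12, 6.39), and dropping a threshold removes no call. With only the compared groups, which leaves few degrees of freedom, 18 C1q calls were higher, against 35, and 22 with the replicate block; 4 and 5 injury calls were lower, against 2; 4 and 5 calls of the last against the first time were higher, against 9; and of consecutive times 13 were higher with and without the block, against 21, and 4 lower with it, against 15. With the block and only the compared groups, no call was lost in the paired comparisons beyond those named for Mcarb on day 14 and ETH on day 1. Leaving out 1 array number at a time, of treated or of vehicle groups, gave 19 to 38 higher and 10 to 18 lower calls of C1q chains, 39 to 47 and 0 to 2 of injury genes, 23 to 31 and 23 to 29 of the other members, 7 to 9 and 5 to 7 for last against first time, and 13 to 21 and 7 to 15 for consecutive times; the injury mean was above the C1q mean in 63 to 69 groups. Of 111 higher and 46 lower calls, 60 and 23 passed in all 9 of these fits, Lyz2 with 11 of 14 and Cd14 with 15 of 20. Groups of 3 chosen animals limit each value, and Mmp12 lay near its lowest level in vehicle livers.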
